A study of Homo sapiens with 2 samples.

Results

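The S100 proteins and annexins were read on the arrays of the established human lung tumour line HCC15, squamous by its labels, with and without knockdown of CTNNB1, the gene of beta-catenin. Members were all probe sets whose only annotated symbol was an S100A number, S100B, S100G, S100P or S100Z, or ANXA followed by a number. This gave 47 probe sets of 31 genes, 20 S100 genes and 11 annexin genes, out of 19775 genes with a probe set of their own. The comparison was between 1 culture given a control siRNA, whose sample title also carries the word Tax without explanation, and 1 culture given an siRNA against CTNNB1. Both were grown in RPMI 1640 with 5% serum, and cells were taken 48 h after transfection. Each group was 1 array, so no value has a replicate, no test between the conditions was possible, and each difference also holds whatever else differed between the cultures and hybridisations. In RNA from a whole culture, fewer expressing cells and less RNA per cell cannot be told apart.

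S100 proteins are small calcium sensors with a pair of EF-hand motifs that mostly act as dimers, opening on calcium to grip a target protein. Annexins bind acidic membrane phospholipids in the presence of calcium through a core of repeated domains, and several carry an S100 dimer on their free amino-terminal tail. In epithelial tumours S100A4, S100A6, S100A10 and S100P have been studied for motility and invasion, and S100A4 has been described as a transcriptional target of beta-catenin and TCF in colon cancer cells.

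The brightest probe set of CTNNB1 (201533_at) read 1224 in control cells and 339 after knockdown, or 27.7% of the control. The other 2 CTNNB1 probe sets, both over the filter, were at 91.3% (223679_at, 130 and 118) and 51% of the control (1554411_at, 89.8 and 45.8). All 5 epithelial markers checked (EPCAM, CDH1, KRT8, KRT18, KRT19) passed the signal filter, a mean signal of at least 49.1, the median of all values. CDH1 had a log2 ratio of -0.66 and the other 4 had 0.10 to 0.39. Of 7 squamous markers only SOX2 passed it, with signals of 60.1 and 41.6, while KRT5, KRT14, DSG3 and PKP1 lay under it and KRT6A and TP63 had no probe set of their own. Of 4 lung adenocarcinoma markers 3 passed it, NAPSA (56.2 and 65.6), SFTPB (165 and 172) and SFTPC (107 and 191), and NKX2-1 did not. Of the lists of other cell types, 1 of 7 immune, 1 of 4 fibroblast and 1 of 3 endothelial markers passed the filter. The median log2 ratio of CTNNB1 siRNA over control was 0.15 over all 12531 entering genes and 0.23 over the 7913 of them called bright here, whose mean signal reached 209, the 75th percentile of all values. Ratios are therefore read against those medians, and their error is the pooled SD between probe sets of 1 gene, 0.42 in log2, or 0.29 among bright probe sets. This SD does not cover variation between cultures.

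Most S100 and annexin genes that passed the signal filter in HCC15 cells had bright signals that differed little between the arrays. Of the 31 genes, 18 passed the signal filter, 10 of 20 S100 genes and 8 of 11 annexins, and 15 of the 18 were bright. After CTNNB1 knockdown S100A7A, which passed the filter only through its control array, was at least 2-fold lower. No entering member was at least 2-fold higher. That is 1 of 18 members lower, against 2.38% of all entering genes, and 0 of 18 higher, against 2.29%. Among bright genes 0.43% were at least 2-fold lower and 1.76% higher, and 0 of the 15 bright members were past 2-fold either way. The median log2 ratio was 0.13 over the 10 S100 genes and 0.18 over the 8 annexins, next to 0.15 over all entering genes. The 8 annexins were all bright, and the median over bright genes was 0.23. The S100 median turned to -0.07 after quantile normalization, -0.05 after loess and -0.02 after centring. The annexin median turned to -0.06 after quantile normalization and -0.09 after loess. The all-gene median moved as well, to -0.033 after quantile normalization, -0.023 after loess and 0 after centring. With scaling to a common median the S100 and annexin medians were 0.27 and 0.31, next to 0.29 over all entering genes. Of the 18 members, 9 lay above the all-gene median and 9 below it.

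**Figure D1:**
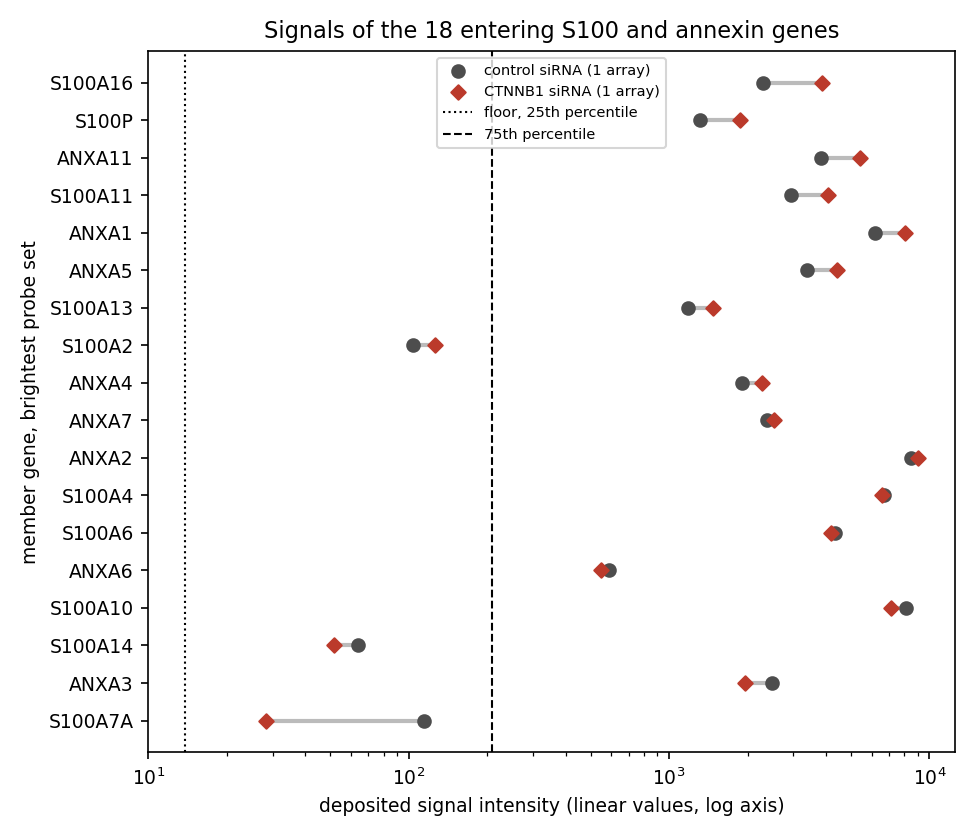
Signal intensity (log axis) of the brightest probe set of each of the 18 entering members, with grey circles for the control siRNA array and red diamonds for the CTNNB1 siRNA array, 1 array each and no error bars. S100A7A, at 114 and 28.2, has the widest gap. The length of each gap is comparable between genes, whereas the position of different probe sets on the axis is not a ranking of transcripts.

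Among S100 genes with bright signals, S100A16 stood highest in ratio. S100A16, a broadly expressed S100 protein, read 2303 in control cells and 3852 after CTNNB1 siRNA, 1.67-fold higher. Its log2 ratio of 0.74 was 0.47 above the median of the brightest decile of genes, and 5.59% of bright genes had a ratio as high or higher. S100P, a secreted and cytosolic S100 protein that binds ezrin and the receptor RAGE, read 1310 and 1877, a log2 ratio of 0.52. S100A11, which binds the tail of annexin A1, read 2942 and 4061, a log2 ratio of 0.46. S100P and S100A11 lay 0.24 and 0.20 above the medians of their deciles of genes by signal, less than the bright probe set SD of 0.29. S100A16, S100P and S100A11 each had 1 member probe set. All 3 were higher with CTNNB1 siRNA under all 4 normalizations tried, with log2 ratios of 0.45 to 0.88 for S100A16, 0.24 to 0.65 for S100P and 0.18 to 0.60 for S100A11, and none reached 2-fold in any.

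S100A13, which takes part in the leaderless release of FGF1, had 2 entering probe sets with ratios of opposite sign. Its bright probe set (202598_at) read 1179 and 1475, a log2 ratio of 0.32, and a dim one (213481_at) read 73.4 and 63.2, a log2 ratio of -0.22. Their ratios lie 0.54 apart, less than 0.60, the SD of a difference between 2 probe sets.

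S100A4 and S100A6 were close to level at their brightest probe sets. S100A4, which binds non-muscle myosin heavy chain, read 6683 in control cells and 6562 after CTNNB1 siRNA, or 98.2% of the control. Its log2 ratio of -0.03 was 0.29 below the median of the brightest decile of genes, about the size of the bright probe set SD. S100A6, or calcyclin, read 4321 and 4190 at its bright probe set (217728_at), 97% of the control. A second S100A6 probe set (228923_at), near the signal filter, read 36.7 and 80.3, 2.19-fold higher, and the cause of this disagreement was not tested. 228923_at passed the filter only through its CTNNB1 siRNA array. It was the only entering member probe set at least 2-fold higher, 1 of 28, against 3.48% of all entering probe sets. At least 2-fold lower was 1 of 28, against 2.42%. The signs for S100A4 and S100A6 were not fixed, since scaling to a common median gave log2 ratios of 0.11 and 0.09 and loess gave -0.28 and -0.31.

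S100A10, or p11, has lost calcium binding and stays in the active shape that holds annexin A2. It read 8127 in control cells and 7113 after CTNNB1 siRNA, or 87.5% of the control. The log2 ratio of -0.19 lay 0.46 below the median of the brightest decile of genes and kept its sign under the 4 normalizations, from -0.44 to -0.06. A second probe set of S100A10 (238909_at), dim, went the other way, from 42.2 to 65.2, and passed the filter only through its CTNNB1 siRNA array.

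The dim S100 genes that passed the filter were S100A2, S100A14 and S100A7A. S100A2, an S100 gene of basal and squamous epithelium, read 104 and 126, a log2 ratio of 0.29. S100A14, an S100 gene of epithelia, read 63.6 and 51.6, a log2 ratio of -0.30, close to the median of -0.23 in its decile of genes by signal. Both ratios lie within the probe set SD of 0.42.

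**Figure D2:**
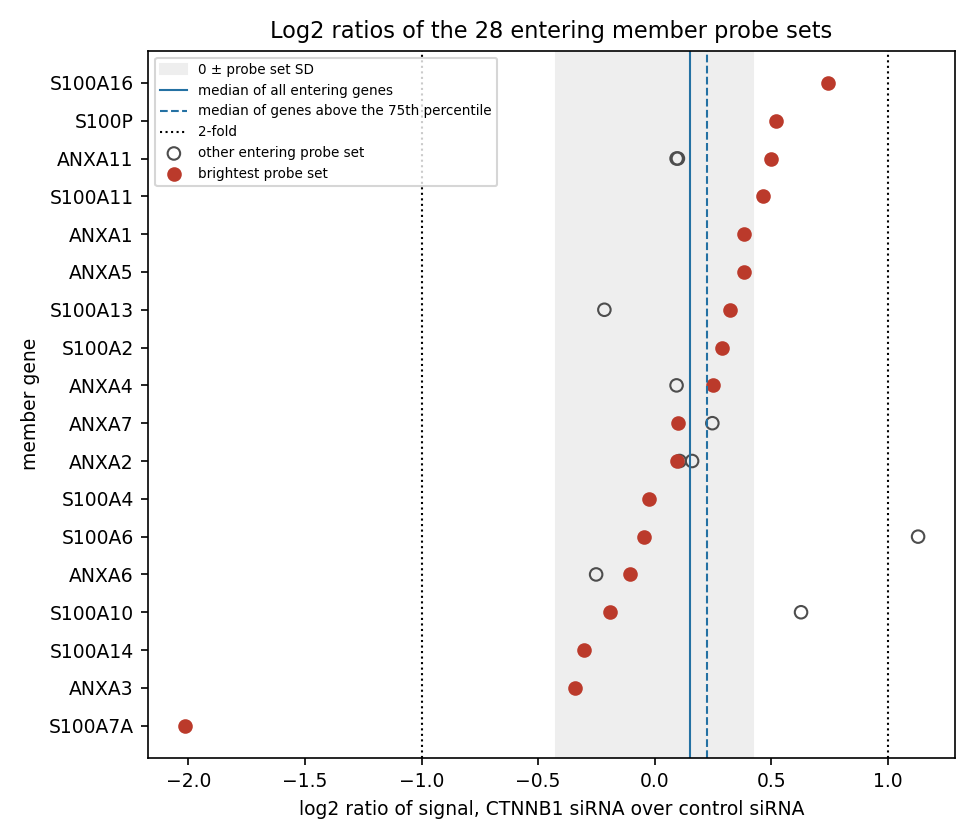
Log2 ratio of signal (CTNNB1 siRNA over control siRNA) of the 28 entering member probe sets, by gene, with filled points for the brightest and open points for the others. The grey band is 0 ± the probe set SD of 0.42, blue lines are the medians of all entering genes (0.15) and of bright genes (0.23), and dotted lines mark 2-fold. Only the S100A7A point at -2.02 and the open S100A6 point at 1.13 lie beyond the dotted lines.

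S100A7A encodes koebnerisin, a near copy of the antimicrobial skin protein psoriasin (S100A7). Its probe set 232220_at read 114 with control siRNA and 28.2 with CTNNB1 siRNA, 4.04-fold lower and a log2 ratio of -2.02. Its second probe set (232170_at) lay under the filter and did not show the decrease, with 12.6, a value under the floor of 13.8, and 21.1. The entering probe set belongs to the second dimmest decile of genes, in which 9.42% were past 2-fold in either direction, against 0.559% in the brightest decile. S100A7A stayed past 2-fold in each of the 10 alternative settings in which it entered, with log2 ratios from -2.17 to -1.22, and did not enter with the filter at the 75th percentile. S100A7 itself read 5.8 and 5.7, under the floor on both arrays. In RefSeq the S100A8 gene model overlaps S100A7A from the opposite strand. The main S100A8 probe set (202917_s_at) read 18.1 and 3.6, and the other (214370_at) went the opposite way, 0.8 and 15.5. Both lay under the filter, each with 1 value under the floor.

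The start regions of S100A7A and S100A7 are shown because S100A7A was the one member past 2-fold and its near copy lay under the floor. The 250 bases before each start site, from RefSeq, are identical at 241 positions, 96.4%, when laid side by side without gaps. CTTTGT and CTTTGA were taken here as letters of a TCF and LEF motif, and the bases beyond them were not checked. Both regions hold the letters CTTTGT, starting 14 bases before the start site. Capitals mark those letters.
S100A7A (GRCh38.p14, chr1:153416270-153416519, plus strand): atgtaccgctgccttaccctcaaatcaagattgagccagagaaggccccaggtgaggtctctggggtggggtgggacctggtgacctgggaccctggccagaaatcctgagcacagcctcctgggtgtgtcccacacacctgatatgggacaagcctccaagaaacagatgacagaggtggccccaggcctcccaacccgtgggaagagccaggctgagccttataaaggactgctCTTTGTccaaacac
S100A7 (GRCh38.p14, chr1:153460652-153460901, minus strand): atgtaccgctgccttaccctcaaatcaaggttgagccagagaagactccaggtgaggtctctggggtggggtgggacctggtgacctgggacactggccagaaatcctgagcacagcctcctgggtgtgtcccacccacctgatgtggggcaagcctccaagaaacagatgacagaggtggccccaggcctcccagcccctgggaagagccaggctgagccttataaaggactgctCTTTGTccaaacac

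The same letters were looked for before the start sites of all members. The search was for CTTTGA or CTTTGT on either strand, with overlapping matches counted, and 22.8% of the 35116 promoters of the table held at least 1. RefSeq start regions were matched for 29 members, and S100B and ANXA13 were not matched. Of the 40 member start regions 5 held a match, 12.5%, in S100A7A, S100A7, S100A13, S100Z and ANXA1. Those that passed the signal filter went different ways, with log2 ratios of -2.02 for S100A7A, 0.32 for S100A13 and 0.38 for ANXA1. A further pair of regions is shown for contrast, ANXA1 with matches starting 178 and 124 bases before its start, and S100A4, the member described as a beta-catenin target elsewhere, with none in this window. A match is a string of letters and not a measured binding site.
ANXA1 (GRCh38.p14, chr9:73151615-73151864, plus strand): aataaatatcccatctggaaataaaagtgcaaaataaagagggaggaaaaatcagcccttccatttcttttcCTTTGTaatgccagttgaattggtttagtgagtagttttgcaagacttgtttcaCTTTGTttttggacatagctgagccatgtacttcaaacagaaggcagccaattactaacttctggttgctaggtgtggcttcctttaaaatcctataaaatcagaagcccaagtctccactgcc
S100A4 (GRCh38.p14, chr1:153545807-153546056, minus strand): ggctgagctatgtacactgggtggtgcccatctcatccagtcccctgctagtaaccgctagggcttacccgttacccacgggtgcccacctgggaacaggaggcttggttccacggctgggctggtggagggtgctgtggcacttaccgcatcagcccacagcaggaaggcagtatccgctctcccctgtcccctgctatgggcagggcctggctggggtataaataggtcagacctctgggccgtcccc

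The S100 family sits mostly in 1 cluster on chromosome 1, and members over and under the signal filter were mixed along it. Of the 20 S100 genes 16 lie on that chromosome, 9 of which passed the filter, while 3 were under the floor on both arrays. In RefSeq order, S100A10 and S100A11 come first, and 47 other protein-coding genes stand before the next member, S100A9. In the stretch from S100A9 to S100A7 the probe sets read at or near the floor apart from S100A7A. S100A6 follows with 4321 and 4190, then S100A5 with 8.6 and 5.5, then S100A4 with 6683 and 6562, so that a gene under the floor lies between a bright pair. S100A3, S100A2, S100A16, S100A14, S100A13 and S100A1 close the cluster, with S100A16 and S100A13 bright. Neighbours also differed in log2 ratio, with S100A16 (0.74) next to S100A14 (-0.30). Against the medians of their deciles S100A16 lay at 0.47 and the dim S100A14 at -0.07, and the cause of the gap was not tested. S100A13 (0.32) stands next to S100A1, which read 37.5 and 10.4, under the filter and with the second value under the floor.

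**Figure D3:**
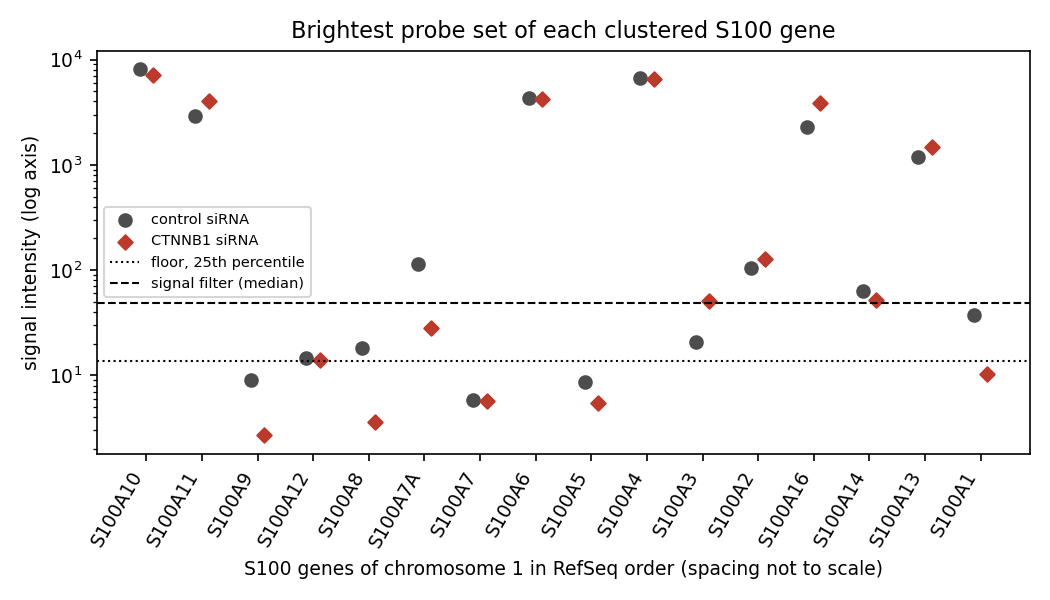
Signal intensity (log axis) of the brightest probe set of each of the 16 S100 genes of chromosome 1, in RefSeq order with equal spacing, for the control siRNA array (grey circles) and the CTNNB1 siRNA array (red diamonds). The dotted line is the floor at 13.8 and the dashed line the filter at 49.1. S100A5, under the floor on both arrays, stands between the bright S100A6 and S100A4.

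S100 genes best known from myeloid cells and nerve lay under the signal filter. S100A8 and S100A9, which pair as calprotectin in neutrophils and monocytes, had no entering probe set. S100A9 read 9 and 2.7. The 2 S100A8 probe sets contradicted each other, 18.1 and 3.6 in 202917_s_at against 0.8 and 15.5 in 214370_at. S100A12, another myeloid S100, read 14.5 and 14. S100A5 and S100G lay under the floor on both arrays, as did both probe sets of S100B, the glial S100 protein.

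Some dim S100 genes passed 2-fold once the filter was dropped, where large ratios are more frequent over all genes as well. With no filter, 3 of 31 members were at least 2-fold lower, against 6.45% of all genes, and 1 was at least 2-fold higher, against 3.65%. Besides S100A7A these were S100A1, an S100 gene of striated muscle, at 37.5 and 10.4, S100Z at 30.4 and 11.5, and S100A3, a hair follicle S100 gene, at 20.7 and 50.9. The values of S100A1 and S100Z on the CTNNB1 siRNA array lay under the floor, so that they were at least 2.72-fold and 2.2-fold lower against it. No annexin member gene was past 2-fold with no filter. Dim probe sets that did not stand for their gene were, in ANXA1 (233011_at, 12.4 and 32.7) and ANXA2 (1568126_at, 40.5 and 18.7). The same held for 1 of the 2 ANXA9 probe sets, both under the filter, with 9.8 and 41.8 in 211712_s_at and 42.2 on both arrays in 210085_s_at.

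The annexin members that entered were all bright. The 8 genes had log2 ratios from -0.34 to 0.50, and 0 of 8 were past 2-fold. Against the bright-gene median of 0.23, ANXA3 lay 0.57 below, more than the bright probe set SD of 0.29, and ANXA11 lay 0.27 above, within it. ANXA11, which tethers RNA granules to lysosomes, read 3830 and 5418 at its brightest probe set (206200_s_at), a log2 ratio of 0.50. Its other 2 probe sets read 458 and 491 (214783_s_at) and 164 and 175 (228727_at), with log2 ratios of 0.10 and 0.09, so the higher value rests on 1 of 3.

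ANXA1, a glucocorticoid-induced annexin that acts on formyl peptide receptors when secreted, read 6156 with control siRNA and 8039 with CTNNB1 siRNA, a log2 ratio of 0.38. ANXA5, whose binding of phosphatidylserine is used to stain dying cells, read 3380 and 4409, also a log2 ratio of 0.38. Both were higher under the 4 normalizations, from 0.14 to 0.52 and from 0.10 to 0.52. They lay 0.12 above the median of the brightest decile of genes, less than the bright probe set SD of 0.29.

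ANXA3 was the annexin with the lowest ratio. It read 2488 in control cells and 1964 after CTNNB1 siRNA, which is 78.9% of the control (log2 ratio -0.34). This was 0.62 below the median of its decile of genes by signal, and 5.98% of bright genes had a ratio as low or lower. The sign held under the 4 normalizations, from -0.62 to -0.21, and ANXA3 had 1 member probe set. ANXA3 and S100A7A were the 2 members that lay more than 0.5 from the median of their decile.

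The remaining annexins were close to level, and their signs changed with the scaling. ANXA2, a membrane and actin-binding annexin of the cell cortex, was read by 3 bright probe sets with 8465 and 9040 (213503_x_at), 7939 and 8872 (210427_x_at), and 7928 and 8538 (201590_x_at). Their log2 ratios of 0.09, 0.16 and 0.11 lie close together. All 3 names end in _x_at, and such probe sets can also take signal from near copies of a gene. Without them ANXA2 did not enter. ANXA4, an annexin of secretory epithelia, read 1907 and 2269 (201301_s_at) and 1529 and 1631 (201302_at). ANXA7, or synexin, read 2366 and 2537 (201366_at) and 1958 and 2324 (209860_s_at). ANXA6, with its duplicated annexin core, read 588 and 546 (200982_s_at) and 95.1 and 79.9 (244250_at). Of the others, ANXA13 read 29.9 and 33.5 and ANXA10, a gastric annexin, 12.9 and 3.3, both under the filter like ANXA9.

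**Figure D4:**
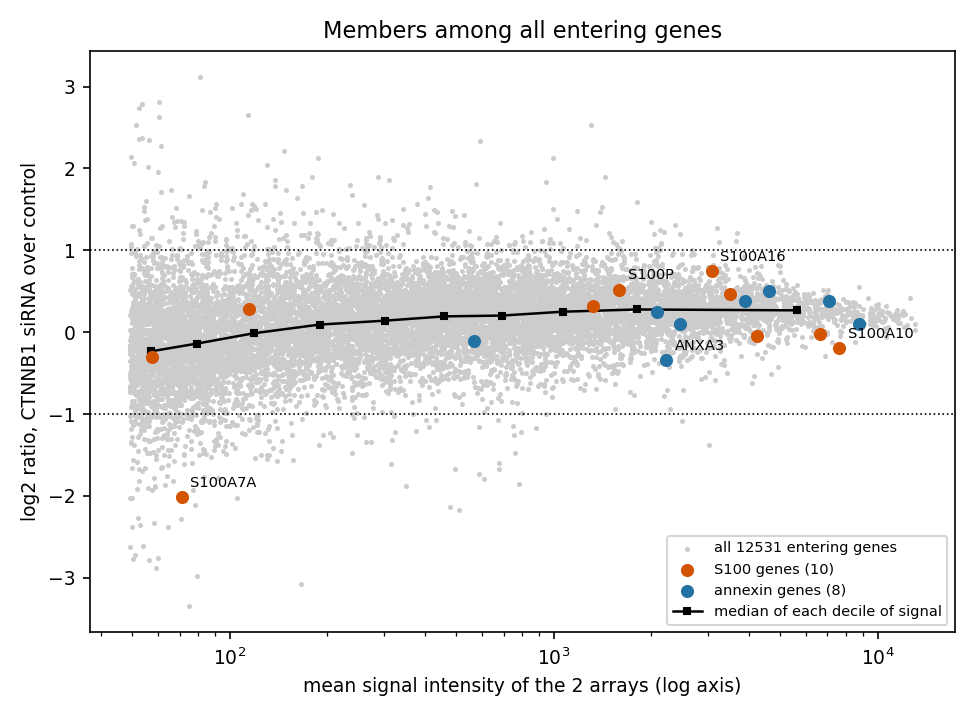
Log2 ratio (CTNNB1 siRNA over control siRNA) against mean signal of the 2 arrays (log axis) for all 12531 entering genes (grey), with S100 genes in orange, annexins in blue and the median of each decile of genes by signal as black squares. Of the 18 members, 13 lie in the brightest 2 deciles, where the grey cloud is narrow, and S100A7A lies among the dim genes, where it is wide.

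Partners of known S100 and annexin complexes were compared side by side. S100A10 and ANXA2, which form a heterotetramer at the plasma membrane, had log2 ratios of -0.19 and 0.09. The difference of 0.29 is smaller than 0.41, the SD of a difference between 2 bright probe sets. S100A11 and ANXA1 had 0.46 and 0.38, a difference of 0.08. S100A6 and ANXA11 had -0.04 and 0.50, 0.54 apart and above that SD at their brightest probe sets, although the other probe sets of ANXA11 (0.10 and 0.09) and of S100A6 (1.13) do not repeat it. S100A8 with S100A9 could not be compared, as neither passed the filter.

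Genes whose products bind S100 proteins or annexins, or act with them at the cell surface, included several higher genes of plasminogen activation. The filter kept 21 of 30 such genes. Of these, 4 were at least 2-fold higher, against 2.29% of all entering genes, and 0 were at least 2-fold lower. The list was chosen with earlier results of these data known. PLAU, the urokinase gene, read 905 and 2717, 3-fold higher. PLAUR, the urokinase receptor gene, read 729 and 2099, 2.88-fold higher, with a log2 ratio of 0.62 at its 1 entering probe set whose name ends in neither _x_at nor _s_at (214866_at, 214 and 330). PLAT, tissue plasminogen activator, read 75.9 and 185, 2.44-fold higher. S100A10 with annexin A2 is known as a docking site for tPA and plasminogen, and neither of the pair was past 2-fold. AGER, which encodes RAGE, a receptor for several S100 proteins, read 35.6 and 79.1, 2.22-fold higher from a dim signal. AGER passed the filter only through its CTNNB1 siRNA array, and a second AGER probe set lay under the floor on both arrays. With the floor at the median of all values the AGER log2 ratio was 0.69, under 2-fold. The median log2 ratio of the 21 genes was 0.31, next to 0.15 over all entering genes, and 12 of the 21 lay above the bright-gene median and 9 below it. After quantile normalization the 2 medians were 0.025 and -0.033, and after loess 0.045 and -0.023.

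Other direct binders of the members were under 2-fold. CACYBP, which binds S100A6, had a log2 ratio of 0.25, with its 4 entering probe sets running from -0.61 to 0.35. EZR (ezrin), a partner of S100P, had 0.41. AHNAK, the scaffold that the S100A10 and annexin A2 complex recruits, had 0.31. MYH9, the non-muscle myosin bound by S100A4, had -0.36. SRI (sorcin), a partner of annexin A7, had 0.48. PDCD6, or ALG-2, a partner of annexins A7 and A11, had 0.49, with its 3 entering probe sets running from -0.24 to 0.83. FPR1, FPR2 and FPR3, the receptors of annexin A1, did not pass the filter. These genes were chosen from the list after their values were seen.

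Further lists of calcium-binding or neighbouring genes give the setting. Of 22 other EF-hand genes 15 entered, and 0 were past 2-fold in either direction, against 2.38% of all entering genes lower and 2.29% higher. Their median log2 ratio was 0.38, next to 0.15 over all entering and 0.23 over bright genes. It was 0.094 after quantile normalization, next to -0.033 over all entering and -0.016 over bright genes. After loess it was 0.12, next to -0.023 and -0.010. The largest values were 0.71 for CETN3, a centrin of the centrosome, and 0.63 for RCN3, a reticulocalbin of the endoplasmic reticulum. CALB2 (calretinin) had -0.61 and EFHD2 0.60. RCN3 rests on 61734_at (85.2 and 132), and its other entering probe set of similar signal (219102_at, 84.1 and 57.3) had -0.55. Of 17 other genes for calcium-dependent membrane or actin binders 14 entered, 1 past 2-fold downward and 1 upward, against the same 2 shares. Their median was 0.38 too, and 0.12 after quantile normalization and 0.13 after loess, next to the same medians of all entering and bright genes. Among them SCIN (scinderin) was 2.39-fold lower (88.3 and 37) and passed the filter only through its control array. Its other 3 probe sets lay under the floor, and its log2 ratio with the floor at the median was -0.85. DYSF (dysferlin), a membrane repair protein gene, was 2.02-fold higher (86.5 and 174.8), and not past 2-fold under quantile normalization, loess or centring. CPNE3, a copine, had 0.69, with 1.72 at its second probe set, and CPNE7, another copine, -0.64.

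Skin barrier genes of the epidermal differentiation complex, within which the S100 cluster lies, lay largely under the signal filter. Of 15 listed genes 12 had a probe set of their own, 2 passed the filter and 10 did not. Neither of the 2 was past 2-fold, against 2.38% of all entering genes lower and 2.29% higher. LCE3D, a late cornified envelope gene, read 91.2 and 53.6 (224328_s_at), a log2 ratio of -0.77. SPRR1A, a small proline-rich gene, read 103 and 95.3 (214549_x_at), a log2 ratio of -0.11 (0.02 when the arrays were scaled to a common median). Another SPRR1A probe set (213796_at) read 1.4 and 2.3, under the floor on both arrays.

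The direction of the small member ratios depended on how the 2 arrays were scaled. Of the 18 members, 12 kept their sign under the 4 normalizations and 6 did not, namely S100A4, S100A6, ANXA2, ANXA4, ANXA6 and ANXA7. Over all entering genes, lower genes made up 50.9% of the calls past 2-fold as deposited, 27.9% with scaling to a common median and 73.3% with centring. S100A7A was past 2-fold in all of these scalings, and no other member was.

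**Figure D5:**
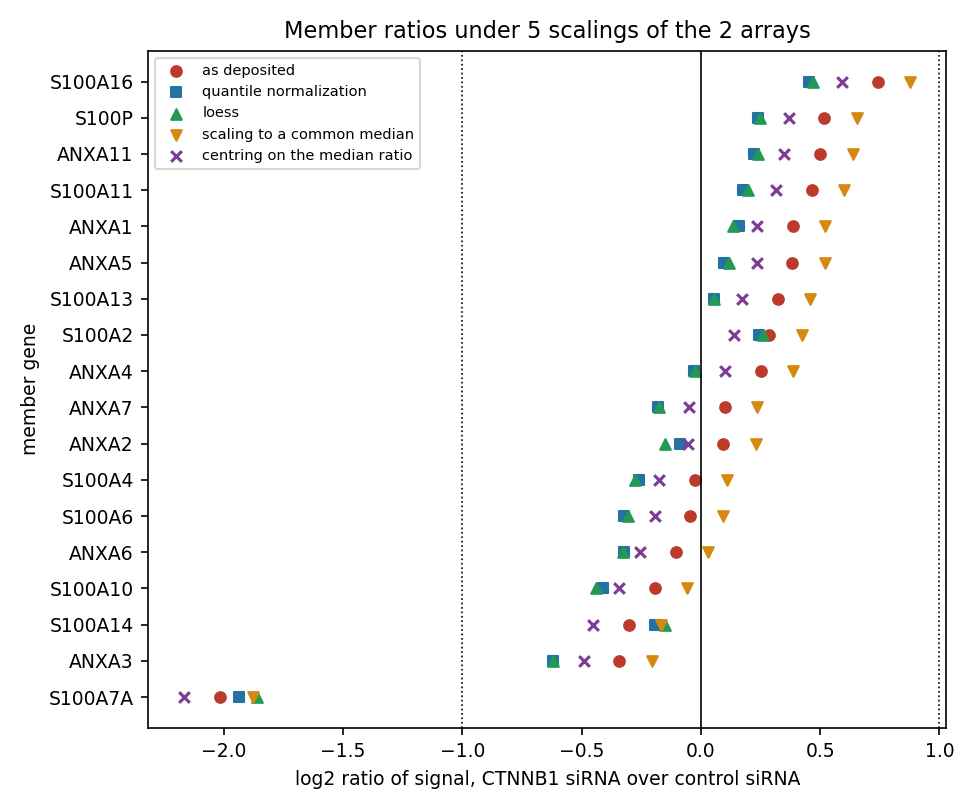
Log2 ratio (CTNNB1 siRNA over control siRNA) of the 18 entering members under 5 scalings of the 2 arrays, 1 symbol for each scaling. Dotted lines mark 2-fold and the solid line no difference. S100A16 runs from 0.45 to 0.88 and stays to the right of the solid line, S100A7A stays beyond 2-fold, and 6 members have symbols on both sides of the solid line.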

How the data were processed

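The authors ran MAS5, per the submitters' processing notes, and deposited linear signal intensities of 54675 probe sets from 2 arrays. Its version, target, scaling and presence calls were not given in the sources used here. Medians were 51.3 (control siRNA) and 46.7 (CTNNB1 siRNA). In GEO's platform annotation 41097 probe sets carried 1 gene symbol, 1801 carried several and 11777 were absent. Current RefSeq names replaced the symbols of 41043 by Entrez number.

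From the deposited intensities, values below 13.8 (the 25th percentile) were raised to that floor, which is not a detection limit and makes folds against it lower bounds. Log2 ratios have the control array as denominator, without further normalization. Entry needed a mean signal of at least 49.1, met by 27151 probe sets. The entering probe set of highest mean signal stood for its gene. Genes were called at a difference of 2-fold. For the probe set SD, 5791 genes had several entering probe sets. The number of arrays limits the precision.

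The members and lists were chosen with earlier results of these data known. Named were all members, CTNNB1 and, from each list, the 4 entering genes with the largest absolute ratio and any past 2-fold; others are marked as chosen later. Protein identity was not analysed here. The calculations were tested on simulated arrays. Alternatives were 4 normalizations, 2 floors, 2 filters, 2 rules for the probe set of a gene and leaving out probe sets ending in _x_at or _s_at, 11 in all. Python 3.11.15, pandas 2.3.3, numpy 2.4.6, statsmodels 0.14.6 (loess with a span of 0.3) and matplotlib 3.10.9 were used.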

Additional observations from a re-analysis of the deposited data

How the results depend on the processing

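With 1 array per group no array could be left out, and no paired analysis was possible because each group held 1 sample. A list median is given here where it moved by more than 0.1 in log2, and a count where it moved by more than 1.5 times. As reported, medians were 0.13 for S100 genes, 0.18 for annexins, 0.31 for the partner list, 0.38 for the EF-hand list and 0.38 for the membrane binder list. In that order they were -0.068, -0.058, 0.025, 0.094 and 0.12 after quantile normalization, -0.046, -0.088, 0.045, 0.12 and 0.13 after loess, 0.27, 0.31, 0.45, 0.52 and 0.52 with scaling to a common median, and -0.020, 0.025, 0.16, 0.23 and 0.23 with centring. Under the same 4 normalizations, in that order, the median over all entering genes was -0.033, -0.023, 0.29 and 0. The S100 median was 0 with no filter, 0.32 with the 75th-percentile filter and 0.25 with the median over probe sets. It was 0.39 with the largest-ratio probe set and 0.29 without _x_at and _s_at probe sets. The partner median was 0.18 with no filter, 0.48 with the largest-ratio probe set and 0.18 without _x_at and _s_at probe sets, and the EF-hand median 0.55 with the largest-ratio probe set.

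Members at least 2-fold lower numbered 3 with no filter and 0 with the 75th-percentile filter, where fewer genes entered. Members at least 2-fold higher numbered 1 with no filter and 1 with the largest-ratio probe set, where S100A6 turned from -0.04 to 1.13. In the partner list, 2 genes were at least 2-fold lower with no filter, and 2 were higher with the 75th-percentile filter and 1 without _x_at and _s_at probe sets. In the membrane binder list, lower genes numbered 0 with the floor at the median, 3 with no filter, 0 with the 75th-percentile filter and 0 without _x_at and _s_at probe sets. Higher genes there numbered 0 after quantile normalization, loess, centring and the 75th-percentile filter, 2 with the median over probe sets and without _x_at and _s_at probe sets, and 4 with the largest-ratio probe set. With no filter 1 epidermal complex gene was higher, and with the largest-ratio probe set 1 EF-hand gene was higher. The cause of these moves was not tested beyond which probe sets enter.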

Other observations

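Some probe sets related to the members were outside the rule. The annexin A2 pseudogene ANXA2P2 read 7040 with control siRNA and 6933 with CTNNB1 siRNA (208816_x_at), ANXA2P1 read 392 and 317, and ANXA2P3 read 208 and 111. The pseudogenes are near copies of ANXA2. Of the probe sets annotated to several symbols, 203074_at and 1570140_at carried the annexin symbols ANXA8L1 and ANXA8, and both passed the filter. They disagreed in size. 203074_at read 150 and 45.5, a log2 ratio of -1.72, and 1570140_at read 83.2 and 73.1, a log2 ratio of -0.19. 201077_s_at carried SNU13 and ANXA2 and read 3641 and 5077. The signal of these probe sets cannot be given to 1 gene here, and the member counts leave them out. In the partner list, ANXA2R, named as an annexin A2 receptor gene, read 142 and 151. S100PBP, which encodes a nuclear partner of S100P, read 409 and 371 in 1 probe set and 273 and 293 in the other.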
